A study of Drosophila melanogaster with 2 samples.

Results

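The genes described here are the nuclear genes for the mitochondrial ribosome and the respiratory chain. They were chosen by symbol from the protein-coding gene models of Drosophila melanogaster, as those that begin with mRpL, mRpS, ND-, COX and a digit, ATPsyn or UQCR, or are SdhA, SdhB, SdhC or SdhD. The rule found 157 of 13945 protein-coding genes. They comprise 47 large-subunit (mRpL) and 26 small-subunit (mRpS) ribosomal protein genes, 40 genes of complex I, 4 of complex II, 9 of complex III, 16 of complex IV and 15 of complex V. No COX gene in the set carried a number of 10 or more, where several assembly factors are numbered. Binding of CG8216, the product of the gene spab, was mapped in whole prepupae, animals at the start of metamorphosis, by chromatin immunoprecipitation and sequencing (ChIP-seq). All animals came from a stable transgenic line with CG8216 joined at its C terminus to eGFP, males and females were pooled, and the precipitation used an antibody to GFP. The labels give the age as 24 days, an unusual figure for this stage, and list 2 biological replicates of this single group. They do not say what drives the transgene or whether the untagged gene is still present. Since the animals were taken whole, a peak cannot be assigned to a tissue.

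The mitochondrial ribosome translates the few proteins encoded by mitochondrial DNA, and all of its own proteins come from nuclear genes. Complexes I to IV pass electrons from NADH and succinate to oxygen and pump protons, except for complex II, which feeds electrons in from succinate without pumping. Complex V, the ATP synthase, uses the proton gradient to make ATP. Complexes I, III, IV and V mix subunits of nuclear and mitochondrial origin, so that the nuclear genes are often discussed as a group that is expressed together. In flies many of these genes are short and lie close to a neighbour transcribed in the other direction. Several have a duplicate whose symbol ends in L, for like, and many such duplicates are known for expression in testis.

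The reproducible list, thresholded by the authors on the irreproducible discovery rate (IDR), held 5944 peaks on dm6. The relaxed list from both replicates pooled held 30000 peaks and includes background. Peak signal is the authors' value in their caller's own units, on a scale that is not stated. In the IDR list it ran from 149.5 to 4074, with a median of 278, and the median of the pooled peaks below that list was 51.7. Read depth is unknown, because the files give no read counts, and the lists from different replicates were not scaled to each other. A gene is called bound here when an IDR summit lies within 500 bp of one of its annotated start sites. Intervals on shares are exact 95% binomial intervals over genes, which are not independent replicates, and cover counting error only.

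By the 500 bp rule on the IDR list, the share of members bound could not be told apart from that of all protein-coding genes. By 2 other counts it was lower. With each summit given only to its single nearest start, the share was 3.82% (1.42 to 8.13%), below the 9.08% of all protein-coding genes. With the pooled list and the 500 bp rule it was 15.9% (10.6 to 22.6%), below 26.7%. Some of the strongest promoter peaks of the list lay near mitochondrial ribosomal protein genes. In all, 12 of the 157 members were bound (7.64%, 95% interval 4.01 to 13%), against 10.9% of all protein-coding genes, which the interval holds. Among them were 5 of 47 mRpL genes (10.6%, 3.55 to 23.1%), 3 of 26 mRpS genes (11.5%, 2.45 to 30.2%) and 4 of 40 complex I genes (10%, 2.79 to 23.7%). With the 5944 strongest peaks of replicate 2 in place of the IDR list, the count for mRpS genes was 5 of 26, and mRpS7 and mRpS26 were added. Of all protein-coding genes 11.9% were called with that list. Complexes II, III, IV and V had 0 bound of 4, 9, 16 and 15 genes, with upper limits of 60.2%, 33.6%, 20.6% and 21.8%. The share for each class lies near the background of 10.9% or has an interval that holds it, so these counts do not set a class apart. The 21 respiratory chain genes whose symbol ends in L, or in L and a number, leaving out ND-MNLL, also had 0 bound (upper limit 16.1%). Members were short, with a median span of 1004 bp against 2166 bp for all protein-coding genes, and both groups had a median of 1 start site. Neither length nor number of start sites was matched in these shares.

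**Figure D1:**
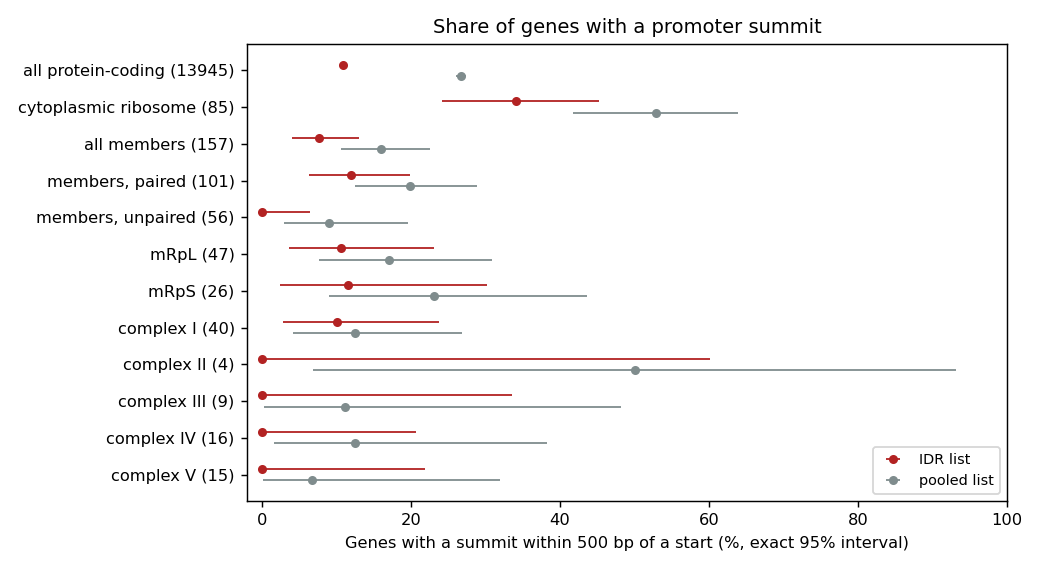
Share of genes (x axis, percent) with a summit within 500 bp of a start, in the IDR list and in the pooled list, for gene groups on the y axis with the number of genes in brackets. Bars are exact 95% intervals. All members sit at 7.64% in the IDR list and 15.9% in the pooled list, below the 10.9% and 26.7% of all protein-coding genes. The members' interval in the IDR list holds 10.9%, and that in the pooled list (10.6 to 22.6%) lies below 26.7%.

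The 3 strongest sites were at mRpS23, mRpS10 and mRpL41, all ribosomal protein genes. At mRpS23 the peak (2L:13835285-13835661) had a pooled signal of 2451, rank 23 of the 5944, with 1125 in replicate 1 and 1321 in replicate 2. At mRpS10 (3R:15229339-15229747) the pooled signal was 2236, rank 28, with 1211 and 1037. Both replicates thus ranked these sites among their 36 strongest peaks. The mRpS23 summit lay 386 bp upstream of its start and 106 bp upstream of the start of CenG1A, which encodes an Arf GTPase-activating protein. The mRpS10 summit lay nearly midway in a gap of 257 bp, 121 bp upstream of mRpS10 and 136 bp upstream of Art3, an arginine methyltransferase gene.

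The DNA under these sites is given from RefSeq's copy of the Release 6 genome (dm6), 5′ to 3′ on the strand of the member gene, with the 21 bases centred on the summit in capitals. The first is the 201 bases around the mRpS23 summit (2L:13835358-13835558, reverse strand). The second is the whole stretch between the starts of Art3 and mRpS10 (3R:15229409-15229664, forward strand, 256 bases).

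mRpS23 and CenG1A: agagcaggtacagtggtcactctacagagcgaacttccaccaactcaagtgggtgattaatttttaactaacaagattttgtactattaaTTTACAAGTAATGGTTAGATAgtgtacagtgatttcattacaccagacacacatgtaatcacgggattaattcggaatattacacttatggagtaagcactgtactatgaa

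mRpS10 and Art3: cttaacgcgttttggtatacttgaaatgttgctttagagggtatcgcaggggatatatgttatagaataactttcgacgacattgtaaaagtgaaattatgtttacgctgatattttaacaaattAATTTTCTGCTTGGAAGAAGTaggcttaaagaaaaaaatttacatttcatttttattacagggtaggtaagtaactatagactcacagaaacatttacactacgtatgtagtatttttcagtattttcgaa

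G and C made up 35.8% of the first stretch and 30.1% of the second. Over the 151 bases centred on each of the 12 summits, G and C ranged from 21.9 to 36.4% with a median of 28.8%. All 1723 IDR summits within 500 bp of any start had a median of 34.4% (quartiles 29.1 and 42.4%). The lowest of the 12 was the mRpL20 summit and the highest that of ND-ASHI. Promoters as a whole, from 250 bases before to 50 after the start, had a median of 34.6% for members and 37.9% for all protein-coding genes.

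The other bound ribosomal protein genes were all of the large subunit, except mRpS2. At mRpL23 (3L:2373432-2373786) the pooled signal was 1169, rank 225, with 560.4 in replicate 1 and 609 in replicate 2. Its summit was the only one of the 12 downstream of the member's start, by 76 bp in a non-coding exon of mRpL23, measured from the nearest of its 3 starts. That start is 50 bp from the start of CG9004 on the other strand, and the closest starts of this pair are 24 bp apart. At mRpL24 (2L:4945319-4945645) the signal was 855, with 449 and 399. The summit lay 74 bp from betaggt-I, which encodes a subunit of a prenyltransferase, and 144 bp from mRpL24. At mRpL2 (3L:11120379-11120643) it was 662, with 312 and 349.9, in an intron of FoxK, a forkhead transcription factor gene. That summit was 86 bp upstream of a FoxK start and 350 bp upstream of mRpL2.

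At mRpL20 (3L:13018036-13018271) the signal was 501, with 229 and 268, and the summit lay 126 bp from Icmt, a gene for an isoprenylcysteine methyltransferase, and 273 bp from mRpL20. At mRpS2 (2L:4850410-4850700) the pooled signal was 564 and replicate 2 had 302, rank 1103. The relaxed list of replicate 1 held no summit within 100 bp of it, and its nearest lay 2381 bp away with a signal of 19.1. This summit was 45 bp from Mon1, a gene of endosome maturation, and 177 bp from mRpS2. The site at mRpS2 is therefore the least replicated of the 8, while the other 7 had a summit in each replicate.

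Complex I genes were bound at lower signal, with one exception. ND-ASHI, an accessory subunit of the membrane arm, had a pooled signal of 1182, rank 213, with 539 in replicate 1 and 625 in replicate 2 (X:6679147-6679550). The summit lay in an intron of Fum1, the fumarase gene of the tricarboxylic acid cycle. It was 232 bp upstream of ND-ASHI and 290 bp upstream of a start of Fum1. It is thus a site shared by an electron transport gene and a gene of the cycle that supplies it with NADH. At ND-51, the flavoprotein subunit that takes electrons from NADH, the signal was 211, with 121 and 86 (2L:6062605-6063064). At ND-SGDH, another accessory subunit, it was 201, with 124 and 59 (3L:12138411-12138870). These 2 are the weakest of the 12, at ranks 4104 and 4323, and replicate 1 exceeded replicate 2 at both.

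The whole stretches between the starts at these weak sites and at a stronger one are shown for comparison, in the same form and from the same genome. They are the gaps from betaggt-I to mRpL24 (2L:4945362-4945578, reverse strand, 217 bases), from CG13994 to ND-51 (2L:6062758-6062988, reverse strand, 231 bases) and from RhoGAP68F to ND-SGDH (3L:12138585-12138867, reverse strand, 283 bases). The last line is the 201 bases around the ND-ASHI summit (X:6679250-6679450, reverse strand).

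mRpL24 and betaggt-I: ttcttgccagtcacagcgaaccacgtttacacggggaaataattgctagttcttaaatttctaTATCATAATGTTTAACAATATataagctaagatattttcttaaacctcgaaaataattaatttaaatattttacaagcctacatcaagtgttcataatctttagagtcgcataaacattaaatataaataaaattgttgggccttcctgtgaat

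ND-51 and CG13994: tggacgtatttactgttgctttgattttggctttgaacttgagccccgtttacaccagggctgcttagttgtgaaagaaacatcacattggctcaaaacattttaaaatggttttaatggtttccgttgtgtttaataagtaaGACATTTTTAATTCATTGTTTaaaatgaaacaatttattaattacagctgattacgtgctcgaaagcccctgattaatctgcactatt

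ND-SGDH and RhoGAP68F: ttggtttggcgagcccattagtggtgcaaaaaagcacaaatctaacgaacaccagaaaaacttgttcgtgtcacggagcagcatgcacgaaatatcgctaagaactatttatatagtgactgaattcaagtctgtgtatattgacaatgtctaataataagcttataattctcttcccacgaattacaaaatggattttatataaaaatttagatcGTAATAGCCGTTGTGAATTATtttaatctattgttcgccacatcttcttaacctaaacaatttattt

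ND-ASHI and Fum1: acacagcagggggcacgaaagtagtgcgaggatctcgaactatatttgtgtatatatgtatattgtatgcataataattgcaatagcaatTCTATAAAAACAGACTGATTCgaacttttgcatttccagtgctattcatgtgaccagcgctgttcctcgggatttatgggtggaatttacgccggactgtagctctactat

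In the stretches of mRpL24, ND-51 and ND-SGDH the summit sits in sequence with 28.6%, 33.8% and 32.9% G and C. The ND-51 stretch holds the word CAGCTG, beginning at base 188 of the line, between the summit and the ND-51 start. The other 3 lines hold no match to it.

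**Figure D2:**
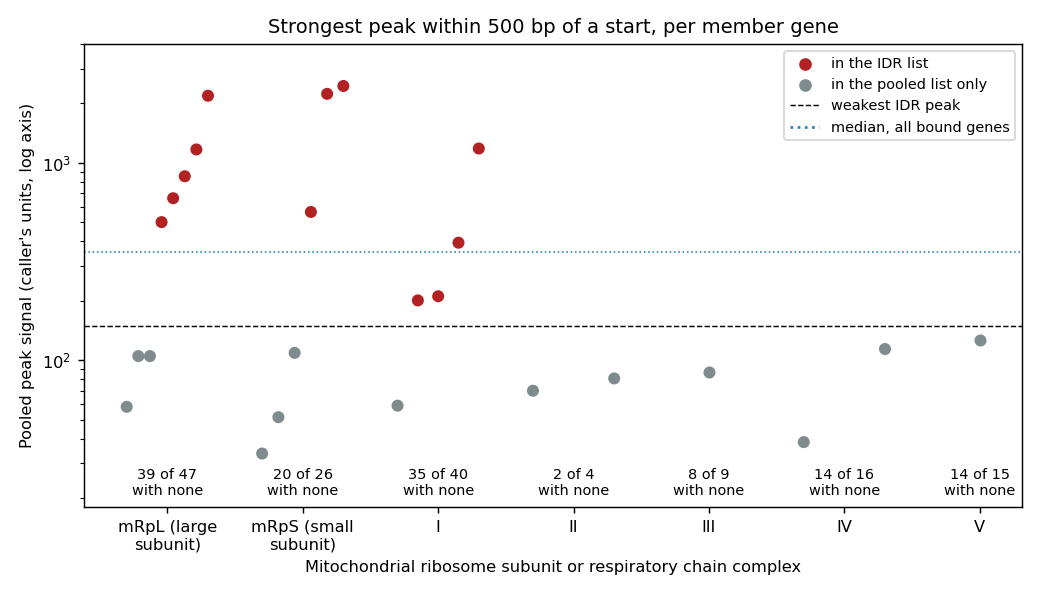
Pooled signal (y axis, caller's units, log scale) of the strongest peak within 500 bp of a start of each member gene, by ribosomal subunit or complex (x axis). Each point is a gene, dashed and dotted lines mark the weakest IDR peak (149.5) and the median over all bound genes (354), and the numbers give the genes with no peak. Ribosomal genes reach 2451, complex I genes 1182, and all points of complexes II to V lie below the weakest IDR peak.

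On arm 2R, 2 further members were bound. At mRpL41 (2R:15217544-15217960) the pooled signal was 2187, rank 33, with 1122 in replicate 1 and 1066 in replicate 2. The summit was 137 bp upstream of mRpL41 and 625 bp upstream of CG8079. This was the widest of the 12 gaps, at 762 bp. At ND-MWFE, a small accessory subunit of complex I (2R:13158401-13158602), the signal was 394, with 217 and 171. The summit lay in an intron of TppII, which encodes a tripeptidyl peptidase. It was 45 bp from a start of TppII and 176 bp from ND-MWFE.

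The bound ribosomal protein genes lay near strong peaks as a group. Their strongest promoter signals ran from 501 to 2451 (n = 8) with a median of 1012. All 8 lay above the median of 354 over the 1518 bound protein-coding genes (quartiles 219.8 and 674). At mRpS23, mRpL24, mRpL2, mRpS2 and mRpL20 the nearest start was the neighbour's, so these signals cannot be assigned to the member. By the single nearest start, 3 of 73 mitochondrial ribosomal genes were bound (4.11%, 0.856 to 11.5%), against 9.08% of all protein-coding genes. The 4 complex I genes had 201 to 1182 with a median of 303, and 2 of them lay above 354. Of the 12 bound members, 6 had a peak among the 594 strongest of the list, which is 50% (21.1 to 78.9%), against 19.8% of all bound genes. Among the 100 strongest peaks were 3 of the 12 (25%, 5.49 to 57.2%), against 4.41% of all bound genes. These shares rest on few genes and no test was run on them. All 12 faced away from a neighbouring gene within 1000 bp, and signals over all bound genes of that kind were not taken.

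The replicates gave similar values at the bound members. Of the 12 summits, 11 had a match within 100 bp in both replicates. The log2 ratio of replicate 1 to replicate 2 ran from −0.23 at mRpS23 and mRpL20 to 1.08 at ND-SGDH, with a median of 0.07. Over the 5621 IDR peaks matched in both, the median was −0.16 and the SD 0.44. ND-SGDH therefore lay more than 2 SD above the median of all peaks, while the other 10 ratios lay between −0.23 and 0.49. Replicate 1 was the higher library at 6 of the 11. With 2 libraries and no second condition there was no test across animals.

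**Figure D3:**
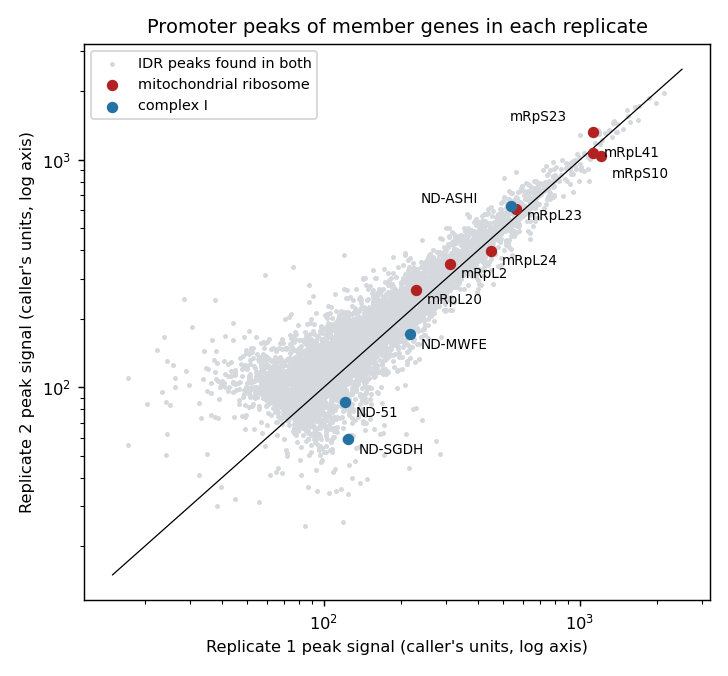
Peak signal in replicate 1 (x axis) and replicate 2 (y axis), both in the caller's units on log scales, for 5621 IDR peaks found in both (grey) and for 11 bound members (coloured). The line marks equal signal. Ribosomal protein genes lie close to the line at high signal, and ND-SGDH, with 124 and 59, lies farthest from it.

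The bound members lay at shared promoters. A gene is called paired here when one of its starts and a start of a protein-coding gene on the other strand face away from each other with at most 1000 bp between them. Members were often paired, in 101 of 157 cases (64.3%, 56.3 to 71.8%), against 36.2% (35.4 to 37%) of all protein-coding genes and 61.2% (50 to 71.6%) of cytoplasmic ribosomal protein genes. All 12 bound members were paired, so 12 of 101 paired members were bound (11.9%, 6.29 to 19.8%), against 13.8% of all paired genes. Of the 56 unpaired members 0 were bound, which allows a share of up to 6.38%, against 9.25% of all unpaired genes. Among all 1518 bound protein-coding genes, 695 were paired (45.8%). The median gap was 257 bp for paired members and 298 bp for all paired genes.

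A summit in such a gap is counted for both genes. The start nearest to the summit belonged to the member at 6 of the 12 sites, namely mRpS10, mRpL41, ND-ASHI, mRpL23, ND-51 and ND-SGDH. At the other 6, mRpS23, mRpL24, mRpL2, mRpS2, mRpL20 and ND-MWFE, it belonged to the neighbour. Over all bound protein-coding genes the summit was nearer to another gene's start in 18.1% (16.1 to 20.1%), and in 35.4% (31.8 to 39.1%) of the 695 paired ones. With each summit given only to its single nearest start, 6 of 157 members were bound (3.82%, 1.42 to 8.13%), against 9.08% of all protein-coding genes. The summit lay between the start of the member and that of the neighbour at 11 of the 12 sites, a count not taken over all genes. Both starts were within 500 bp of the summit at 11 of 12 (91.7%, 61.5 to 99.8%), against 68.6% (65 to 72.1%) of all bound paired genes. That interval holds the share of all bound paired genes. It was upstream of the member's nearest start at 11 of 12, against 79.9% (77.8 to 81.9%) over all bound genes.

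**Figure D4:**
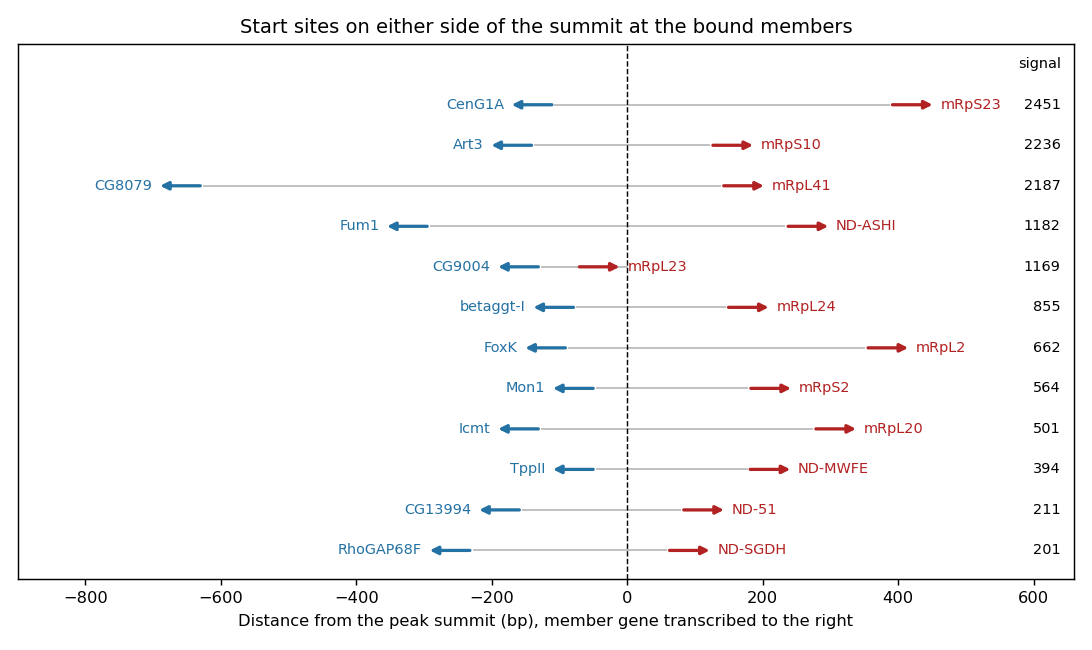
Position of the start of each bound member (red arrow) and of its nearest divergent neighbour (blue arrow) relative to the peak summit at 0 (x axis, bp), with the pooled signal at the right. The member is drawn transcribed to the right. At 11 of the 12 sites the summit lies between the starts, which are 218 to 762 bp apart there, and at mRpL23 it lies 76 bp inside the gene.

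Shares bound were also taken by the width of the gap, which is here the smallest distance between any starts of a pair. Members with a gap of at most 250 bp were bound in 7 of 50 cases (14%, 5.82 to 26.7%), against 12.6% of all genes with such a gap. These 7 include mRpL2 and ND-ASHI, whose closest starts lie 64 and 164 bp from their partner's while the starts that flank the summit are 436 and 522 bp apart. By the starts nearest the summit, 5 of the 12 bound members had a gap of at most 250 bp. With a gap of 251 to 500 bp the count was 4 of 42 (9.52%, 2.66 to 22.6%), against 16.1%. With 501 to 1000 bp it was 1 of 9 (11.1%), against 12%, so that each member share had an interval that held the share of all genes. Members faced each other in only 1 pair, ATPsynD and mRpL55 (95 bp apart), and neither gene was bound.

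The relaxed list added weak summits at 13 further members. In all, 25 of 157 members had a pooled summit within 500 bp of a start (15.9%, 10.6 to 22.6%), against 26.7% of all protein-coding genes. Those with a summit only below the IDR list made up 8.28% of members (4.48 to 13.7%) and 15.8% of all protein-coding genes. By class the totals were 8 of 47 mRpL, 6 of 26 mRpS, 5 of 40 complex I, 2 of 4 complex II, 1 of 9 complex III, 2 of 16 complex IV and 1 of 15 complex V genes. These small counts depend on single libraries. Without replicate 1 they were 3 of 4 for complex II, 2 of 9 for III, 4 of 16 for IV and 2 of 15 for V. Without replicate 2 the count for complex II was 1 of 4. Over all members the count was 36 of 157 without replicate 1, against 30.2% of all protein-coding genes. It was 27 of 157 without replicate 2, against 26.9%. Among the 56 unpaired members 5 had such a summit (8.93%, 2.96 to 19.6%), against 26.6% of all unpaired genes, and among paired members 20 (19.8%, 12.5 to 28.9%), against 26.9%. Over all genes the shares were thus nearly equal, while unpaired members had the lower share among members.

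The strongest of these was at ATPsynCF6, a coupling factor of the ATP synthase, with a pooled signal of 126, 56.8 in replicate 1 and 55.6 in replicate 2. COX7C, a small subunit of cytochrome c oxidase, had 114 (44.4 and 74.3). Signals of 109 at mRpS25 (53.1 and 47.6) and 105 at mRpL34 (81.5 and 34.3) followed. The summit at mRpL18 had 105 in the pooled list and no summit within 100 bp in either replicate. UQCR-11 of complex III had 87 (46.8 and 36.9). The membrane anchor genes of complex II, SdhD and SdhC, had 80.9 and 70.1, and SdhD was lower in replicate 1 (19.3) than in replicate 2 (65.5). SdhC had no summit within 100 bp in replicate 1 and 37.5 in replicate 2. ND-AGGG, mRpL54, mRpS31, COX7AL2 and mRpS5 had between 33.7 and 58.9, near the median of 51.7 for pooled peaks below the IDR list. Within 100 bp of these summits, COX7AL2 had none in replicate 1 and mRpS5 none in replicate 2. All 13 values are under the weakest IDR peak, and the list they come from holds background.

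No summit of either list lay at a start of the remaining 132 members, and 129 had none at a start or inside the gene. The distance from a member to the nearest IDR summit had a median of 9364 bp (quartiles 4144 and 25455 bp), against 10630.0 bp (3378 and 24577 bp) for all protein-coding genes. Within 1000 bp of a start, 20 of 157 members had an IDR summit, against 14% of all protein-coding genes. Within 500 bp the values were 12 of 157 and 10.9%. Just outside the promoter window, 8 members had their nearest IDR summit at 501 to 1000 bp. These were mRpS31 (541 bp), mRpL33 (574 bp), COX7AL2 (622 bp), mRpL54 (709 bp), ATPsynE (793 bp), ND-75 (798 bp), ND-MNLL (849 bp) and ATPsynCF6 (987 bp). Just inside it, the farthest summits were those of mRpS23 (386 bp) and mRpL2 (350 bp).

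Inside the genes, most IDR summits had the start of another gene as their nearest start. An IDR summit fell in the span of 6 of 157 members (3.82%, 1.42 to 8.13%), against 11.9% of all protein-coding genes, and a pooled summit in 8 (5.1%, 2.23 to 9.79%), against 25.5%. Members are short, and per 100 kb of span the density was 4.21 IDR summits for members and 4.24 for all protein-coding genes, counting overlapping genes separately. In the pooled list it was 10.7 and 20.8. The member densities rest on few genes, since ND-15, with a span of 41305 bp, held 4 of the 11 IDR and 13 of the 28 pooled summits counted. Apart from the mRpL23 peak, 10 summits lay in 5 members, and at 9 of these the nearest start was that of another gene. Of the 9, 6 lay within 500 bp of that start, and the other 3 lay 627 and 804 bp (both in ND-15) and 1463 bp (in mRpS9) from it.

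The strongest was in an intron of mRpS9 (3R:7895506-7895773), with a pooled signal of 602, 249 in replicate 1 and 357 in replicate 2. It lay 179 bp upstream of a start of wtrw, an ion channel gene that overlaps mRpS9. In ND-39 a summit with 518 (244 and 279) lay 138 bp from ZnT77C, a zinc transporter gene (3L:20493470-20493698). In mRpL54 one with 249 (93.2 and 155) lay 148 bp from Cht8, a chitinase gene (2R:21061421-21061607). ND-15 held 4 weak summits, with 156 to 198, in a span that overlaps CG3164, and the nearest starts were those of CG3164 and Gs1, a glutamine synthetase gene. The single summit nearest to the member's own start was in COX7AL2, with 196, 622 bp upstream of one of its starts in an intron.

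Of 69 genes with related functions that the rule left out, 9 were bound (13%, 6.14 to 23.3%), near the 10.9% of all protein-coding genes. These lists were chosen with earlier results of these data known. Among 12 other respiratory chain and cytochrome c genes 2 were bound. They were the cytochrome c gene Cyt-c-d (signal 1022, 438 in replicate 1 and 586 in replicate 2, nearest start CG31808) and blw, the alpha subunit of the ATP synthase (187, 93.2 and 92). In mitochondrial translation 1 of 26 was bound, the initiation factor mIF2 (189, 93.6 and 98.3). In mitochondrial DNA and RNA metabolism 1 of 13 was bound, PNPase, a polynucleotide phosphorylase (2823, 1352 and 1480.4). Of 11 tricarboxylic acid cycle genes 2 were bound, Fum1 through the site it shares with ND-ASHI, and Idh3g, an isocitrate dehydrogenase subunit (764, 365 and 392).

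Among 7 regulators 3 were bound, against 10.9% of all protein-coding genes. These were M1BP, a promoter-binding zinc finger protein (446, 107 and 226, nearest start CG8202), the forkhead factor gene foxo (296, 119 and 169.9) and the nuclear receptor gene ERR (289, 126 and 158). The interval for 3 of 7 runs from 9.9 to 81.6%.

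Cytoplasmic ribosomal protein genes, the most similar set, were bound more often and more weakly. By the symbols RpL, RpS or RpLP and a number, 29 of 85 were bound (34.1%, 24.2 to 45.2%), against 10.9% of all protein-coding genes. A summit whose nearest start was their own was also found at 29. The same held for 6 of 157 members (3.82%, 1.42 to 8.13%) and 9.08% of all protein-coding genes. The strongest promoter signals of the bound cytoplasmic genes ran from 159 to 481 with a median of 265. All were below the lowest bound mitochondrial ribosomal gene, mRpL20 at 501. The mRpL20 summit lay nearer to the start of Icmt (126 bp) than to that of mRpL20 (273 bp). Of the 29, 6 lay above the median of 354 over all bound genes. Both sets are rich in paired genes, with 61.2% and 64.3%.

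The word CAGCTG was frequent in promoters of mitochondrial ribosomal protein genes. Words were searched on both strands from 250 bases before to 50 after the outer end of each gene. CAGCTG, which is its own reverse complement and a form of the E-box, was in 60 of 157 member promoters (38.2%, 30.6 to 46.3%), against 17.7% of all protein-coding promoters. It was in 40 of 73 mitochondrial ribosomal promoters (54.8%, 42.7 to 66.5%), in 20 of 84 respiratory chain promoters (23.8%, 15.2 to 34.3%) and in 7 of 85 cytoplasmic ribosomal promoters (8.24%, 3.38 to 16.2%). Within the respiratory chain it was in 1 of the 21 genes whose symbol ends in L, or in L and a number. It was in 19 of the other 63, which include ND-MNLL. By complex the counts were 13 of 40 in complex I, 1 of 4 in II, 1 of 9 in III, 1 of 16 in IV and 4 of 15 in V. Paired genes over the genome had it in 22% and paired members in 43.6% (33.7 to 53.8%). Bound members had it in 6 of 12 and members with no IDR summit in 54 of 145 (37.2%, 29.4 to 45.7%). In the 100 bp on either side of the summits it was found at 3 of the 12, namely mRpL24, mRpS2 and ND-51 (25%, 5.49 to 57.2%). Of all IDR summits 6.41% had it there, and of those within 500 bp of any start 9%.

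Other promoter words were closer to the background. TATCGAT, part of the DNA replication-related element bound by Dref, was in 43 member promoters (27.4%, 20.6 to 35.1%), against 18.2% of all and 29.2% of all paired genes. Its last 6 letters, ATCGAT, are their own reverse complement. It was in 17 of 47 mRpL promoters and in 32 of 85 cytoplasmic ribosomal promoters (37.6%). GTCACAC, part of the motif 1 element bound by M1BP, was in 24 (15.3%, 10 to 21.9%), against 9.49%. TATAAA was in 79 (50.3%, 42.2 to 58.4%), against 45.9%.

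Around the member summits TATAAA was the most frequent of the words searched. In the 100 bp on either side it was found at 5 of the 12 (41.7%, 15.2 to 72.3%). It was there at 35.1% of all IDR summits and 33.8% of those within 500 bp of any start. At ND-ASHI and mRpL23 its centre lay 6 bp from the summit. CAGTGTA and another word, CAGTGCA, which differ in their sixth letter, were together in 11 member promoters (7.01%, 3.55 to 12.2%), against 7.06% of all. CACTGAG was in 2 member promoters, against 2.98%. In the same window CAGTGTA was found at 1 of the 12 sites, ND-MWFE. Of all IDR summits 7.5% had it, and of those within 500 bp of any start 5.63%. CAGTGCA was found at 0 of the 12, where these shares were 10.7% and 7.54%. CACTGAG was also found at 0, against 6.75% and 4.06%. TATCGAT was found at 0, against 2.29% and 3.77%, and the same held for GTCACAC, against 1.41% and 2.26%. A count of 0 of 12 allows a share of up to 26.5%, so none of these counts can be told apart from either share. A match to a word is a description of the sequence and not a binding site.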

How the data were processed

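ChIP-seq peak lists from 2 biological replicates of a single group were used. Per the file headers in the deposited file list, every replicate has a relaxed peak list made with 1 control alignment. A pooled relaxed list and an IDR list were made from both. Which aligner and peak caller were used, and the IDR threshold, is not given in the sources used here. Peak signal, as deposited, is in the caller's own units. The deposited −log10 q-value column was not used for ranking. Positions are 1-based on dm6, with Ensembl release 115 gene models and RefSeq's copy of Release 6, over the chromosome arms and chromosome 4. Lists on dm3 were not used. Replicate summits were matched within 100 bp.

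The members, lists, words and counting rules were chosen with earlier results of these data known, and no set test was run. Named genes are all members with a summit in the IDR list, their divergent or nearest neighbours, the 12 strongest members with a pooled summit only, those 501 to 1000 bp from an IDR summit, and bound genes of the other lists. The last pooled-only member (mRpS5) and the pair of ATPsynD and mRpL55 were named after their values were seen. Genes that the rule holds were left out of the other lists. Counting was tested on simulated summits. Alternatives are described in the closing section. Tools were matplotlib 3.10.9, SciPy 1.17.1, pandas 2.3.3 and NumPy 2.4.6 under Python 3.11.15.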

Additional observations from a re-analysis of the deposited data

How the results depend on the processing

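Without a replicate, the 5944 strongest peaks of the other stood in for the IDR list. The count of 12 bound members was then 13 without replicate 1 and 13 without replicate 2, with 11 of the 12 shared in each case. Of all protein-coding genes, 11.9% and 11.2% were then called. Without replicate 1 ND-SGDH was lost and mRpS7 and mRpS26 were gained, and without replicate 2 mRpS2 was lost and mRpL34 and mRpS22 were gained. With only the IDR peaks above the median signal 10 of 157 members were bound, and ND-51 and ND-SGDH were lost. Of all protein-coding genes 6.67% were then called. A window of 1000 bp gave 20, where 14% of all protein-coding genes were called, and a window of 250 bp gave 9 (7.64% of all genes). When the peak interval had to cover a start, 7 of 157 were bound (5.72% of all genes), and the pooled list gave 16 (17.6% of all genes). Among members with no head-to-head partner, 0 of 56 were bound and 5 had a pooled summit, against 9.25% and 26.6% of all such genes. With only the single nearest start, an alternative chosen after seeing the data, the counts were 6 and 13. The shares over all genes were 9.08% and 23.7%. In gene spans, 3 members were counted with only the IDR peaks above the median signal, against 7.81% of all genes. Shared promoters whose closest starts are at most 250 bp apart held 7 bound members, and with outer gene ends, also chosen later, 10 of the 12 were paired, without ND-ASHI and ND-MWFE. The 2 CAGTG words were in 31 members within 500 bases of the start (21.3% of all genes). The 9 bound genes of the other lists became 5 of 69 with a window of 250 bp (7.64% of all genes), an alternative also chosen after seeing the data. Of 39 recomputed summary counts, 28 stayed within 1.5 times the reported one, as did 150 of 203 counts by class or word. No paired analysis was possible because the series has a single group. The unknown read depth and the 2 libraries limit every value.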

Other observations

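Members far from any reproducible site still appeared in the relaxed list, a pattern chosen after its values were seen. UQCR-11, ND-AGGG and mRpS5 were the 3 members whose nearest IDR summit lay over 1 Mb away, at 2210585, 2066130 and 1627112 bp on arm 3L. All 3 had a pooled summit within 500 bp of a start, with signals of 87, 58.9 and 33.7. The summit at mRpS5 ranked 28092 of the 30000 pooled peaks and had no match within 100 bp in replicate 2. Of the 59 protein-coding genes as far from an IDR summit, 24 had a pooled summit at a start (40.7%), against 26.7% of all protein-coding genes. Mappability, copy number and the control signal in these regions were not examined, and the part they have in this share was not tested.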
